A study of Drosophila melanogaster with 29 samples.

Results

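Adult flies of the stock labelled control, X113_X84, were compared with flies labelled wt, within each sex and then averaged over both sexes. Each of the 4 groups of this comparison was measured on 1 Affymetrix array: control females, control males, wt females and wt males. A probe set belonged to the comparison when control minus wt had the same sign in females and in males. Of 13966 probe sets tested, 7157 met this rule, 3344 of them higher and 3813 lower in control. The other 6787 had opposite signs in the sexes, and 22 had a difference of 0 in a sex.

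The study deals with Drosophila melanogaster that lack or carry alleles of Mnn1, the fly gene for menin. It holds 29 arrays in all, of which 11 are single-channel arrays of adults. Besides the 4 arrays above, the adult set has 2 females labelled het (X113_Y79 and X84_X46), 2 mnn- females (X46_Y79 and Y79_X46) and 3 mnn- males (X46_Y79, Y79_X46 and Y79_Y79). All adults were whole flies collected 3 to 5 days after eclosion and kept at 25 °C. The labels do not say what X113 and X84 stand for, which strain the wt flies came from, or how many flies went into an array. A free-text note shared by all adult arrays calls the flies homozygous for null alleles of Mnn1, which goes against the titles of the control, wt and het arrays, so the groups were taken from the titles. Control and wt shared sex, age range and temperature as far as the labels give them, and any difference of stock background, culture or array handling cannot be told apart from the difference of stock.

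Many of the genes described here belong to a few well-known programmes. In the ovary, follicle cells surround each egg chamber and, late in oogenesis, make the vitelline membrane and then the chorion, the layers of the eggshell. The chorion genes lie in clusters that follicle cells amplify before they are read. Yolk proteins come from the fat body and the follicle cells of females and are taken up by the oocyte, while oskar and nanos messages are made by germline nurse cells and stored in the oocyte. Other groups that follow are digestive proteases and lysozymes of the gut, odorant-binding proteins that carry small hydrophobic molecules in sensory organs and other tissues, detoxification enzymes, and antimicrobial peptides.

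Values are log2 intensities after RMA, the normalization the authors used, so a difference of 1 is a 2-fold ratio. The array medians lay between 5.46 and 5.53. The arrays carried the transcripts of their labelled sexes, with departures on the wt male array, which read female transcripts, and on a het female array. Over the 96 probe sets at least 3 log2 units higher in mnn- females than in mnn- males, the median level was 4.85 on the control male array, 5.77 on the wt male array and 4.73 to 4.95 on the mnn- male arrays, against 8.39 to 8.74 on the female arrays. The wt male array was the highest of the 5 male arrays for 90 of these 96. Yp1, a yolk protein, stood at 7.34 in control males, 11.61 in wt males and 7.31 to 7.59 in mnn- males. The sperm proteins Mst87F and dj, markers of the testis, were at 10.08 and 8.58 in control males, against 10.36 and 8.27 in wt males. The het female X113_Y79 read a male gland transcript, Mst57Da, at 7.26, against 4.84 to 5.13 on the other female arrays, and was the highest of the 6 female arrays for 45.0% of the 1616 male-enriched probe sets, those at least 1 log2 unit higher in mnn- males than in mnn- females, against 23.6% of those enriched in neither sex. Het arrays enter the comparison through its error: leaving out either one gave 72 probe sets called higher and 40 lower. In whole flies, fewer cells of a type and less RNA per cell cannot be told apart. The main counts that follow are therefore also given without the wt male array.

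Averaged over both sexes, 69 probe sets (0.494% of those tested) differed between control and wt at an adjusted p under 0.05 in limma's fit over all 11 adult arrays. Of these, 32 were higher in control (0.229%) and 37 lower (0.265%), and they named 28 and 33 single genes. All 69 had the same sign in females and in males, where 7157 of all 13966 did. The fit counts disagreement between the sexes as error, so a call favours a shared sign, and this is no test. At an unadjusted p under 0.05 there were 1486 (10.6%). The differences of the higher ones ran from 0.48 to 1.74 log2 units (median 0.98), and those of the lower ones from -3.19 to -0.55 (median -1.91). The lower group therefore held the greater distances, and its lowest members were eggshell genes.

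Most of the 7157 members differed little. In 4219 of them the smaller of the female and male differences was below 0.1 log2 units, and the median size of the mean difference over all members was 0.161. Past 0.5 in both sexes were 102 higher (0.73%) and 73 lower probe sets (0.523%). Past 1 in both sexes, a 2-fold ratio, were 12 higher (0.0859%) and 32 lower (0.229%), and past 2 in both sexes were 0 higher and 4 lower. The female and male differences correlated with r = 0.27 over the 13966 probe sets and 0.20 over the 10661 that were neither female-enriched nor male-enriched, that is with less than 1 log2 unit between mnn- females and mnn- males, as a description of 4 arrays that were normalized together.

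Each stock had 1 array per sex, so the error of every difference came from how the 11 arrays departed from a model of genotype plus sex, with 6 residual degrees of freedom. The p-values measure the spread between these arrays, and nothing in the labels says how far separate cultures would spread. For differences within 1 sex or between the sexes each arm was 1 array, and all of the error came from the het and mnn- arrays, with 4 residual degrees of freedom. A lone array was thus assumed to vary as those do, and such a call cannot tell a difference of the stock from that of the single array. With the mnn- arrays left out, 0 probe sets were called in females, 12 in males and 0 between the sexes. Those fits took their error from the 2 het females alone. The loss of calls was not separated from the loss of degrees of freedom. Control and wt differed by 1 log2 unit or more for 0.859% of probe sets in females and 1.35% in males. The same share was 0.193% between the 2 het females, 0.0644% between the 2 mnn- females and 0.236% to 0.401% between pairs of mnn- males. Arrays of 1 group and sex carried different labels, as listed above. These shares and the error therefore also hold any difference between those labels.

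**Figure D1:**
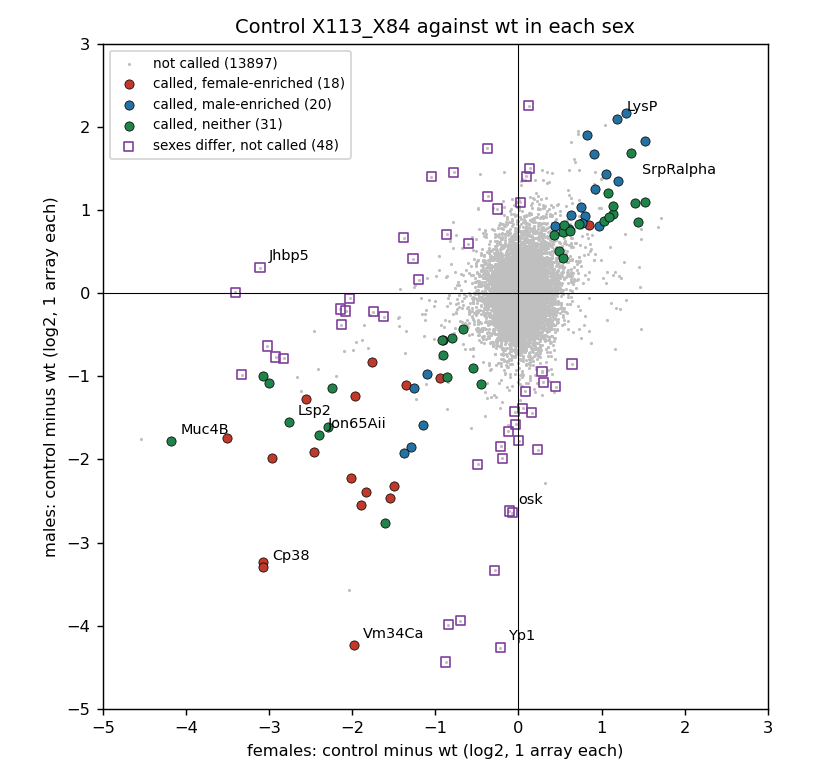
Control minus wt in females (x axis) against males (y axis), in log2 units, for the 13966 probe sets, 1 array per group. Grey points were not called, filled points were called over both sexes and coloured by whether mnn- flies read them as female-enriched, male-enriched or neither, and open squares mark probe sets whose difference was not called over both sexes but differed between the sexes; the called points lie in the upper right and lower left, and Yp1 lies low on the male axis only.

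Eggshell genes were lower in control than in wt on the female arrays and on the male arrays. The male values are set against the wt male array, which read female transcripts widely, and the part of that array in the male differences was not tested. All 15 probe sets of the chorion and vitelline membrane list were below 0 in females and in males, with a median difference of -2.11 log2 units, against -0.02 over all probe sets. The test was passed by 10 of the 15, all lower in control, against the 0.265% called lower over all probe sets. In females taken alone, which leaves that array aside, the list's median was -2.03, and in males it was -2.22. The wt female array was the highest of 6 female arrays for 15 of 15, against 16.7% of all probe sets, and the wt male array the highest of 5 male arrays for 15 of 15, against 28.6%.

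Cp38 and Cp36, major chorion proteins, had the largest differences. Cp38 was 9.04 in the control female and 12.11 in the wt female, with 8.86 to 10.21 on the het and mnn- female arrays. In males Cp38 was 6.16 in control and 9.46 in wt, with 5.75 to 5.84 in mnn-. The control arrays lay among the other arrays of their sex or just above them, and only wt stood far above. Averaged over the sexes, Cp38 was 9.11-fold lower in control (log2 difference -3.19, SE 0.38, adjusted p = 0.00227).

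Cp36 showed the same order, with 9.55 in the control female and 12.62 in the wt female, and 6.74 in the control male and 9.97 in the wt male. Its log2 difference was -3.15 (SE 0.29, adjusted p = 0.000542), an 8.89-fold lower level in control. Cp7Fc, their neighbour on the X chromosome, differed by -2.47 (SE 0.41, adjusted p = 0.0215). The chorion genes of the 3L cluster followed: Cp19, Cp18 and Cp16 were 4.35-fold, 4.01-fold and 3.76-fold lower in control, with adjusted p of 0.0125, 0.0285 and 0.0316.

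Vm34Ca and Vm26Aa are structural proteins of the vitelline membrane. Vm34Ca was 11.16 in the control female and 13.14 in the wt female, and 6.60 in the control male and 10.84 in the wt male, a mean difference of -3.11 (SE 0.47, adjusted p = 0.0119). Vm26Aa was 9.76 in the control female and 11.59 in the wt female, and 6.38 in the control male and 8.78 in the wt male, a mean difference of -2.11 (SE 0.21, adjusted p = 0.000778). For both genes the wt array was the highest of its sex in females and in males. The yellow family genes yellow-g and yellow-g2, which follicle cells read for the eggshell, had differences of -3.51 and -3.07 in females; in males yellow-g differed by -1.74. The difference between the sexes was called for yellow-g2 (2.07, adjusted p = 0.0222) and not for yellow-g (adjusted p = 0.221). Their mean differences were -2.63 (adjusted p = 0.00567) and -2.04 (adjusted p = 0.042). dec, the gene of defective chorion 1, another eggshell protein, which was outside the list under this name, differed by -2.18 (SE 0.24, adjusted p = 0.0016).

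The 5 members that did not pass, named here after their values were seen, were Cp15 at -2.80 (adjusted p = 0.0578), Vm32E at -1.84, Femcoat at -1.23, psd at -1.22 and Vm26Ac at -1.05. Vm26Ac differed by -2.03 in females and by -0.06 in males (adjusted p = 0.00824 for the difference between the sexes). The list's median was -2.28 without the wt male array and -1.94 without the wt female array. It was -2.36 without the control female array and -1.90 without the control male array. Fewer of the 15 passed without the wt female array or either control array, and the number called over all probe sets moved as well. Cp36, Cp38 and Vm26Aa passed under every alternative run. Without the control male array Cp16, Cp18, Cp19, Vm34Ca, Cp7Fc and yellow-g2 did not pass, at adjusted p of 0.364, 0.23, 0.223, 0.2, 0.169 and 0.13. Without the control female array Cp7Fc, yellow-g and yellow-g2 did not, at 0.0893, 0.0524 and 0.156, and without the wt male array Cp16 and Cp18 did not, at 0.127 and 0.0649.

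**Figure D2:**
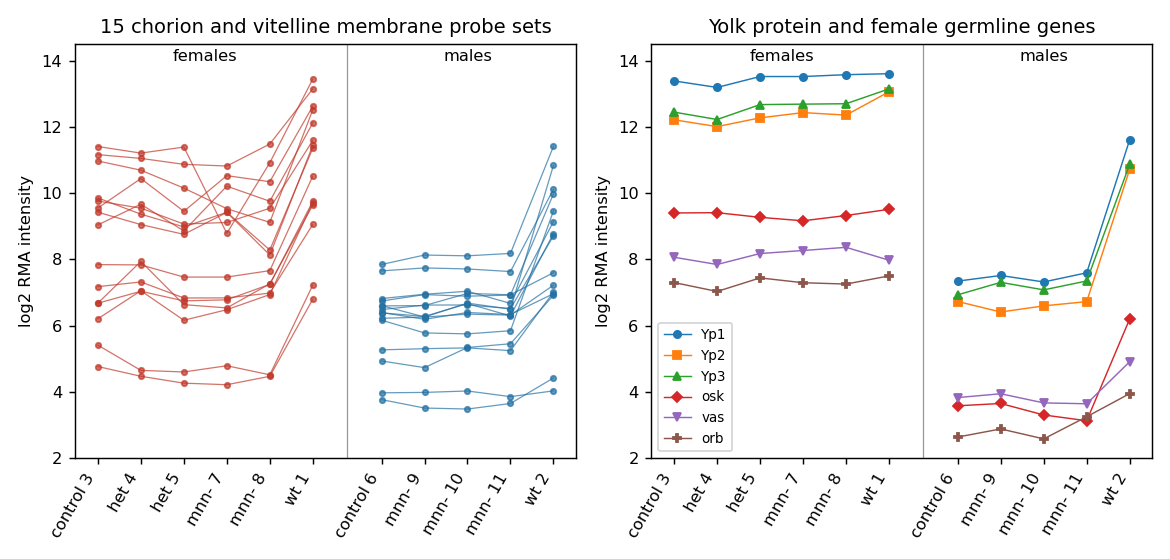
Log2 RMA intensity on each adult array of the 15 chorion and vitelline membrane probe sets (left, 1 line per probe set) and of 6 yolk protein and female germline genes (right). Females are left and males right in each panel, with control first and wt last among the arrays of a sex; eggshell transcripts reach their highest level on the wt array of each sex, while the 6 yolk and germline genes stand far above the other arrays of the sex on the wt male array.

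The yolk protein and germline transcripts described here lay further apart between the control and wt arrays in males than in females. Yp1 was 13.38 in the control female and 13.60 in the wt female, and 7.34 in the control male and 11.61 in the wt male. The mnn- males read 7.31 to 7.59. The male difference minus the female difference was -4.05 log2 units (SE 0.27, adjusted p = 0.00028, and 0.24 with the mnn- arrays left out). Yp2, Yp3 and the germline thioredoxin gene dhd followed with -3.14, -3.24 and -3.05 (adjusted p = 0.000891, 0.00138 and 0.00078). The female germline list had a median of 0.00 in females and -0.59 in males, and 0 of its 20 probe sets passed over both sexes, where 0.494% of all did, and 7 in males alone, where 2.41% of all did. osk, which directs formation of the germ plasm, was 9.40 in the control female and 9.51 in the wt female, but 3.58 in the control male and 6.20 in the wt male.

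The cell cycle and DNA replication list, whose genes are highly read in ovaries, had a like pattern. Of its 16 probe sets, 0 were above 0 in males (median -0.59), where 5761 of all 13966 were (median -0.05). In females 14 were (median 0.07), where 7720 of all were (median 0.02). Over both sexes 0 passed, where 0.494% of all did. CycB, the mitotic cyclin B, was 11.12 in the control female and 11.07 in the wt female, and 6.85 in the control male and 8.23 in the wt male. Its difference between the sexes was called (adjusted p = 0.0459). Without the wt male array the fit gave CycB a difference of 0.19, with the sex difference of other stocks standing in for the wt male. The female difference itself was 0.05. The part of female RNA on the wt male array in these values was not tested.

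Among the called single genes outside the eggshell list, dec apart, the lowest differences were those of a mucin, a storage protein and a digestive protease. The list may not hold every eggshell gene, and whether genes outside it belong to the eggshell was not tested. Mean differences of Muc12Ea (-2.66), Yp2 (-2.42), Yp3 (-2.32) and Yp1 (-2.24) were as low and did not pass (adjusted p = 0.0891, 0.154, 0.149 and 0.303). Lsp2, the hexamerin larval serum protein 2, was 6.35 in the control female and 9.11 in the wt female, with 6.41 to 6.65 on the other female arrays. In males it was 7.36 in control and 8.91 in wt, with 7.10 to 7.40 in mnn-. Only the wt arrays lay apart in both sexes. The log2 difference was -2.16 (SE 0.22, adjusted p = 0.000965), a 4.46-fold lower level in control.

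Jon65Aii, a serine protease of the Jonah family made in the midgut, was 5.63 in the control female and 8.04 in the wt female. In males Jon65Aii was 5.64 in control and 7.35 in wt, and the other 7 adult arrays read 5.47 to 5.82. The groups did not overlap: both wt arrays stood above every other array. Its difference of -2.05 (SE 0.18, adjusted p = 0.000542) passed under every alternative. Other Jonah proteases were also below 0 without passing: Jon25Bi differed by -1.25 (adjusted p = 0.183), Jon25Bii by -1.10 (0.345) and Jon25Biii by -1.04 (0.281). Over the 28 probe sets of the digestive protease list, 12 were above 0 and the median was -0.06.

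Muc4B, a mucin-related gene, was 3.43 in the control female and 7.61 in the wt female, and 2.47 in the control male and 4.24 in the wt male, a mean difference of -2.98 (SE 0.50, adjusted p = 0.0268). Its 2 other probe sets read -1.83 and -0.92 and did not pass. CG4009 was 4.18 in the control female and 7.18 in the wt female, and 3.79 in the control male and 4.87 in the wt male, a mean difference of -2.04 (adjusted p = 0.0287). Both genes were highest on the wt array of each sex, by more in females. Neither passed without the control female array (adjusted p = 0.111 for Muc4B and 0.116 for CG4009) or without the control male array (0.13 and 0.104).

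Single detoxification genes were called in each direction. Of 87 cytochrome P450 probe sets, 2 were called higher and 1 lower in control, against 0.229% and 0.265% of all probe sets, and the list's median was 0.00. Cyp6a2, a P450 known from insecticide-resistant flies, was 7.34 in the control female and 8.49 in the wt female, and 8.40 in the control male and 9.99 in the wt male. Its mean difference was -1.37 (SE 0.21, adjusted p = 0.0125, and 0.189 without the control male array). Cyp12c1, a mitochondrial P450, and Cyp4d20 were higher in control by 0.90 and 0.68 (adjusted p = 0.0116 and 0.00839). Without the control male array these 2 did not pass, at 0.13 and 0.104, nor without the wt male array, at 0.0701 and 0.0605, and Cyp12c1 not without the control female array, at 0.0569. Ugt35C1, which attaches sugars to foreign compounds, differed by -1.65 (adjusted p = 0.00184), with 4.56 in the control female and 5.94 in the wt female, and 6.08 in the control male and 8.00 in the wt male, and passed under every alternative. The glutathione S-transferase GstD1 was 10.26 in the control female and 12.12 in the wt female and did not pass (mean difference over both sexes -1.12, adjusted p = 0.376). Over the alternative runs its difference ranged from -2.13 to -0.10.

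Among stress genes, Hsp68, an inducible chaperone, was 4.15 in the control female and 5.25 in the wt female, and 5.65 in the control male and 6.62 in the wt male. Its difference was -1.04 (SE 0.14, adjusted p = 0.00452, and 0.0989 without the control male array). It was the 1 called member of 13 heat shock probe sets, where 0.494% of all were called, and the list's median was -0.18. Hsp27, a small heat shock protein, was at -0.87 and missed the threshold (adjusted p = 0.0611). AANATL3, an acetyltransferase of the arylalkylamine family, was lower in control in both sexes (difference -1.57, adjusted p = 0.00267, and 0.0698 without the control male array).

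Of the genes higher in control, SrpRalpha had the smallest adjusted p. It encodes the alpha subunit of the receptor that docks ribosomes at the endoplasmic reticulum. SrpRalpha was 8.56 in the control female and 7.20 in the wt female, and 8.33 in the control male and 6.64 in the wt male. The other 7 adult arrays read 8.17 to 8.56, so both wt arrays lay below every other array. The difference was 1.52 (SE 0.13, adjusted p = 0.000526), a 2.87-fold higher level in control. A second probe set of the gene read a difference of -0.02 (adjusted p = 0.978). Its level was 5.54 to 6.00 on all 11 arrays, near the array medians, and no detection calls were used, so the difference rests on 1 of 2 probe sets.

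CG31676 had the highest difference of a named gene, 1.68 (SE 0.17, adjusted p = 0.000965), with 5.95 in the control female and 4.43 in the wt female, and 7.02 in the control male and 5.19 in the wt male. Here too the second probe set read no such difference (-0.07, adjusted p = 0.9). Lk6, a kinase of the translation initiation factor eIF4E, was 9.10 in the control female and 7.96 in the wt female, and 9.64 in the control male and 8.69 in the wt male. The Lk6 difference of 1.04 (adjusted p = 0.0018) came with 0.71 on its second probe set (adjusted p = 0.295). Where probe sets of a gene disagree, only the called one is counted here.

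Immune and gut defence genes were among those higher in control. Lectin-galC1, a secreted lectin that binds galactose, was 5.98 in the control female and 4.78 in the wt female, and 7.24 in the control male and 5.88 in the wt male. Its difference of 1.28 (SE 0.13, adjusted p = 0.000851) passed under every alternative. Drsl5, a drosomycin-like peptide, was 7.25 in the control female and 6.20 in the wt female, and 9.13 in the control male and 7.69 in the wt male, a difference of 1.24 (adjusted p = 0.00384, and 0.0987 without the control male array). It was the 1 called member of 15 antimicrobial and Bomanin probe sets, where 0.494% of all were called. Of the 15, 9 were above 0, and the list's median of 0.20 turned to -0.15 without the wt male array and to -0.03 without the control female array. The antifungal peptide Drs (1.18, adjusted p = 0.136) and Listericin (1.13, adjusted p = 0.053) did not pass.

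LysP, a lysozyme, was 8.66 in the control female and 7.47 in the wt female, and 9.34 in the control male and 7.23 in the wt male. Its difference was 1.65 (SE 0.28, adjusted p = 0.0281). The call was lost without the wt male array (difference 1.06, adjusted p = 0.0997), the control female array (0.087), the control male array (0.239), mnn- female 7 (0.0561) or mnn- male 9 (0.0564). Of the 7 lysozymes, 5 were above 0 with a list median of 0.77, and LysP alone passed, where 0.494% of all probe sets did. LysC and LysE, which lie in the cluster of digestive lysozymes and share much of their sequence, so that their probe sets may read each other's transcripts, had differences of 1.01 and 0.79 (adjusted p = 0.403 and 0.503). LysX was at -0.84 (adjusted p = 0.363).

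Odorant-binding proteins were called in both directions, 3 of 35 probe sets higher and 1 lower in control, against 0.494% called over all probe sets. Obp56a was 6.67 in the control female and 5.84 in the wt female, and 8.92 in the control male and 7.02 in the wt male (difference 1.36, adjusted p = 0.042). Obp83b, a protein of antennal hairs, was 6.61 in the control female and 5.70 in the wt female, and 8.29 in the control male and 6.61 in the wt male (difference 1.29, adjusted p = 0.0119). Obp56e was higher by 0.83 (adjusted p = 0.0369). Obp19c was called lower, with 5.81 in the control female and 8.05 in the wt female, and 5.18 in the control male and 6.32 in the wt male (difference -1.69, adjusted p = 0.0269). None of the 4 passed without the control male array, at adjusted p of 0.364, 0.189, 0.364 and 0.189. Obp56a and Obp56e did not pass without the wt male array either, at 0.244 and 0.057, and Obp19c and Obp56e not without the control female array, at 0.102 and 0.0703. The list's median was 0.06, and 0.07 without the wt male array. Of the 35, 21 were above 0, where 6336 of all 13966 were. Which direction held more of the calls turned without the wt male array, so no direction is read for the list.

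**Figure D3:**
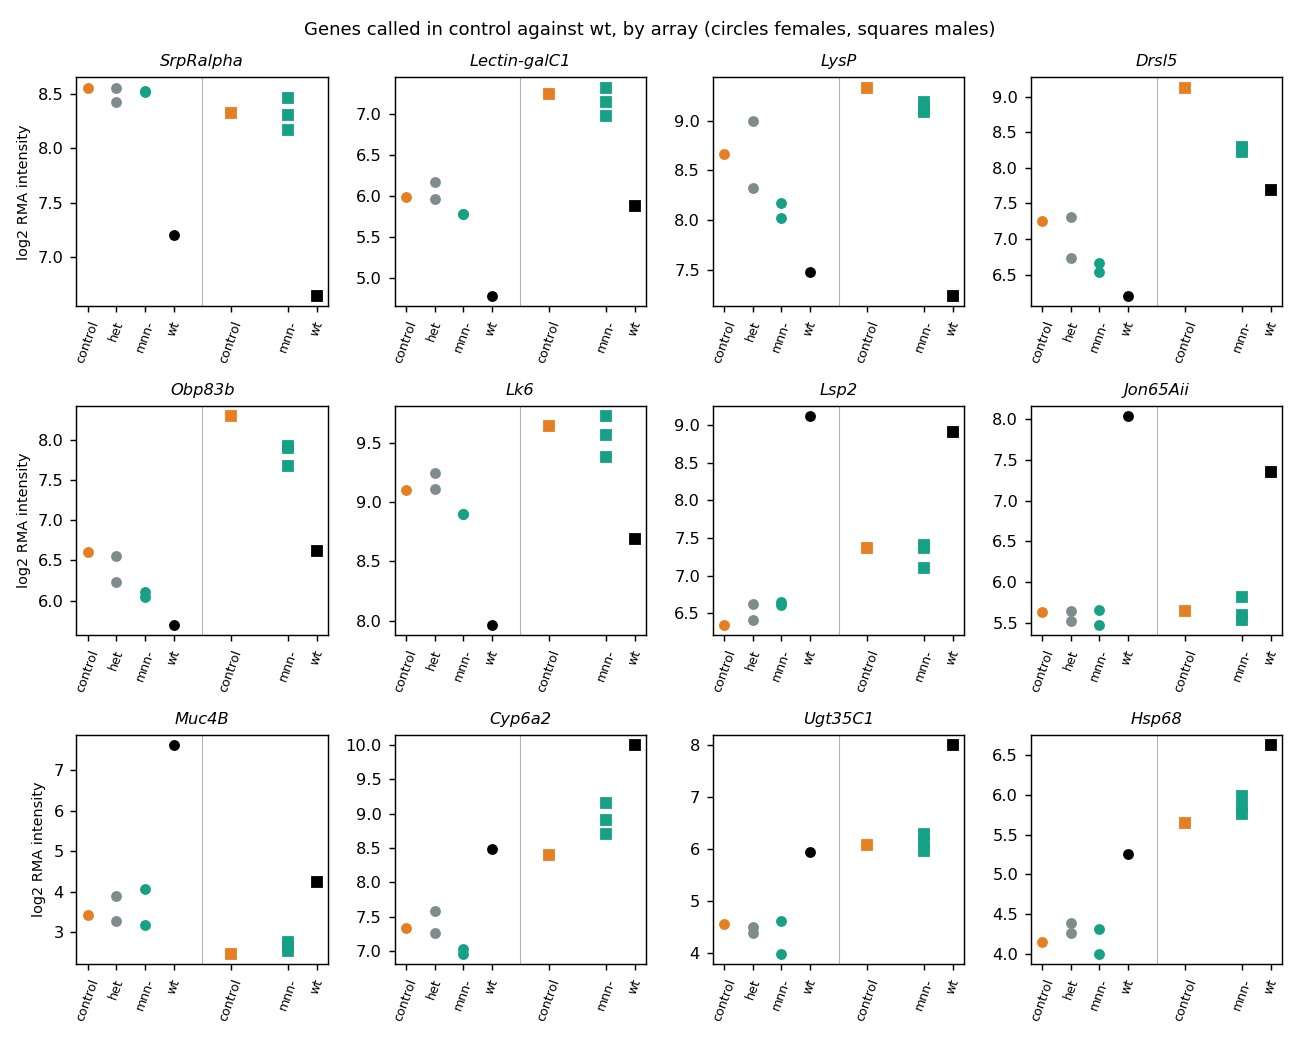
Log2 RMA intensity on every adult array for 12 genes called between control and wt, circles for females and squares for males; each panel has its own scale. The wt arrays (black) lie below the other arrays of their sex for SrpRalpha, Lectin-galC1, LysP, Drsl5, Obp83b and Lk6, and above them for Lsp2, Jon65Aii, Muc4B, Cyp6a2, Ugt35C1 and Hsp68.

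The other genes of large difference are less well described. CG1648 was 10.43 in the control female and 8.91 in the wt female, and 11.19 in the control male and 10.09 in the wt male (difference 1.31, adjusted p = 0.0252). CG7565 differed by 1.15, CG14989 by 1.09 and CG14985 by the least of them, with adjusted p of 0.0369, 0.0486 and 0.00314. CG14985 was at 6.41 in the control female and 5.31 in the wt female, and 5.95 in the control male and 5.04 in the wt male, with both wt arrays below every other array of their sex. Without the control male array none of the 4 passed, at adjusted p of 0.23, 0.353, 0.364 and 0.0745 in the order given. CG1648 and CG7565 also missed without the wt female array (0.0759 and 0.0744) and without the control female array (0.0778 and 0.0871), and CG14989 without the wt male (0.304) or the control female array (0.112).

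Energy metabolism and muscle genes lay slightly above 0 as groups, with few calls. Of 67 probe sets of the respiratory chain and ATP synthase, 53 were above 0 (median 0.19) where 6336 of all 13966 were, and 2 were called higher, where 0.229% of all were. Both belong to complex I: ND-MNLL at 0.57 (adjusted p = 0.0379) and ND-B14 at 0.50 (adjusted p = 0.0448). Of 12 Krebs cycle probe sets 9 were above 0 (median 0.27), and ScsbetaG, a succinyl-CoA synthetase subunit, was called at 0.64 (adjusted p = 0.0379). These 3 did not pass without the wt male array, at adjusted p of 0.195, 0.138 and 0.282, nor without the control male array, at 0.426, 0.367 and 0.268, nor with any 1 of the mnn- arrays left out, at 0.0533 to 0.09. ND-B14 and ND-MNLL also missed without the wt female array (0.0911 and 0.0558), and ND-B14 and ScsbetaG without the control female array (0.0883 and 0.112).

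Muscle and sarcomere proteins had 28 of 34 probe sets above 0 (median 0.18), where 6336 of all 13966 were. Of the 34, which stand for 22 genes, 0 were called, where 0.494% of all were. The giant sarcomere protein gene bt was 5.36 in the control female and 4.63 in the wt female, and 7.44 in the control male and 5.95 in the wt male, with a difference of 1.11 that missed the threshold (adjusted p = 0.0581). Cytosolic ribosomal proteins had 33 of 37 above 0 (median 0.15) and 0 called, against the same shares over all probe sets. At 0.494% called, lists of this size may well hold no call. RpS5b, a ribosomal protein paralogue read in the ovary, went against its list at -0.89, with -0.12 in females and -1.66 in males. The control male array was the highest of the 5 male arrays for 50 of the 67 respiratory chain probe sets and for 22 of the 34 muscle probe sets, against 22.4% over all probe sets. The wt male array was the lowest of its sex for 9 of the 67 and 7 of the 34, where 2622 of all 13966 were, and the wt female array for 17 and 19, where 2885 of all were.

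**Figure D4:**
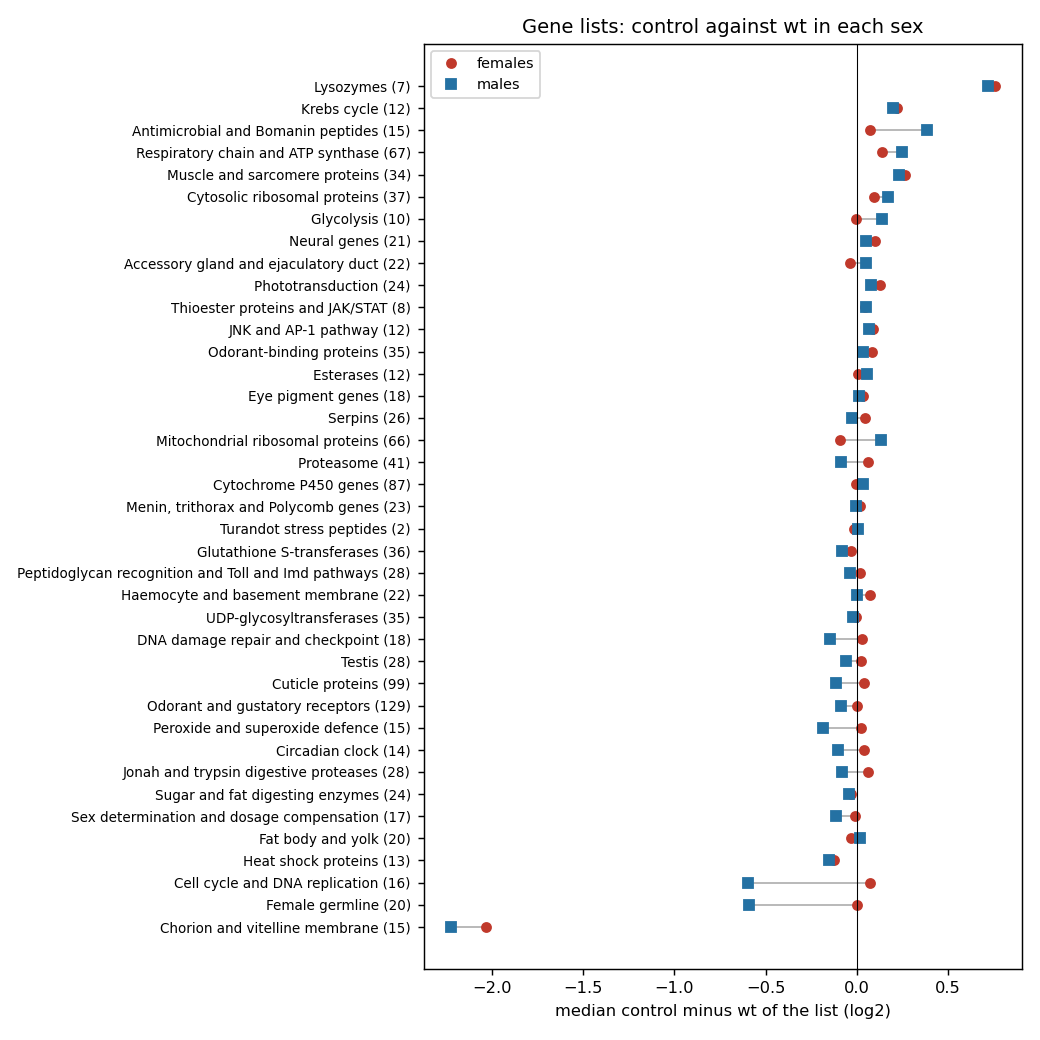
Median control minus wt difference of each gene list in females (circles) and males (squares), in log2 units, with the number of probe sets in brackets. Chorion and vitelline membrane genes lie near -2 in both sexes, female germline and cell cycle genes lie near -0.59 in males and near 0 in females, and most other lists lie within 0.3 of 0.

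Of the 69 called probe sets, wt was the array that stood apart in nearly all. Among the 37 lower in control, the wt array was the highest of its sex in both sexes for 37, where this held for 5.11% of all probe sets, and the control array was the lowest in both sexes for 4, against 3.87% of all. Among the 32 higher in control, wt was the lowest of its sex in both sexes for 29 (4.88% of all), and control the highest in both for 6 (2.96% of all). A call between control and wt favours probe sets where either is at an edge, so these counts describe the calls and are no test. The het and mnn- arrays were thus on control's side of wt for nearly all of them.

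Many of the called probe sets were sex-enriched in mnn- flies. Of the 37 lower in control, 17 were female-enriched, 5 male-enriched and 15 neither. Of the 32 higher, 1 was female-enriched, 15 male-enriched and 16 neither. Over all probe sets, 12.1% were female-enriched and 11.6% male-enriched. With female-enriched probe sets left out of the fit, 30 higher and 20 lower were called, all 50 of them among the 69. With both classes left out, 29 higher and 24 lower were called, and 31 of these 53 were among the 69.

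Leaving out 1 of the 4 arrays of the comparison moved the counts. In these fits 1 stock kept 1 array, and the sex difference of other stocks stood in for its missing sex. Without the wt male array, 20 were higher and 84 lower, and 46 of the 69 stayed called. Without the wt female array, 116 were higher and 111 lower, and 53 of the 69 stayed. Without the control female array the counts were 55 and 42, with 39 of the 69, and without the control male array 10 and 15, with 22 of the 69. No called single gene changed its sign under any of these. Of the 61 called single genes, 46 lost their call without the control male array, 29 without the control female, 22 without the wt male and 15 without the wt female. Between 12 and 26 lost it with 1 of the mnn- arrays left out, and 1 with either het array left out. The call held for 13 with each of the 11 arrays left out in turn: Cp36, Cp38, Vm26Aa, dec, Lsp2, Jon65Aii, Ugt35C1, CG6908, SrpRalpha, CG31676, Lectin-galC1, Lk6 and mthl8.

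Within each sex 1 control array was set against 1 wt array, with the error taken from the het and mnn- arrays alone. On that footing 80 probe sets were called in females (0.573%), 14 higher (0.1%) and 66 lower in control (0.473%). In males 336 were called (2.41%), 192 higher (1.37%) and 144 lower (1.03%). The difference between the sexes was called for 50 probe sets (0.358%). In 28 of these the male difference was above the female one (0.2%) and in 22 below it (0.158%). The 6 lowest were Yp1, Muc12Ea, Yp3, Yp2, dhd and nanos, all of them read on the wt male array well above the control male. Muc12Ea, a mucin-related gene, differed by -0.88 in females and by -4.44 in males.

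The 6 highest were CG34166, Jhbp5, apolpp, Muc4B on its second probe set, CG13114 and Coq8. CG34166 was 7.08 in the control female and 10.49 in the wt female, and 11.33 in the control male and 11.32 in the wt male. Jhbp5, of the family of juvenile hormone-binding proteins, was 3.91 in the control female and 7.03 in the wt female, and 8.87 in the control male and 8.56 in the wt male. Both genes were male-enriched and reached the highest female level in wt. apolpp, the precursor of the main lipid carrier of the haemolymph, was lower in the control female (5.89, against 6.94 in the wt female) and higher in the control male (8.07, against 6.66 in the wt male). A second, brighter apolpp probe set differed between the sexes by 1.16 and did not pass (adjusted p = 0.124).

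By chromosome arm, as placed in RefSeq's Release 6 annotation, called probe sets made up 0.95% on 3L, 0.536% on 2L, 0.527% on X, 0.283% on 2R, 0.255% on 3R and 0 of 72 on the fourth chromosome. On 3L there were 12 higher and 11 lower among 2422, and on X 2 higher and 9 lower among 2088. Among 10819 genes in map order, 3 runs of adjacent measured genes were called in the same direction, holding 7 of the 61 called genes. They were yellow-g with yellow-g2 on 3L, Cp19 with Cp16 on 3L, and Cp7Fc, Cp36 and Cp38 on X. All 3 runs consist of eggshell genes.

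No difference between the stocks was called for Mnn1. It was 5.75 in the control female and 5.63 in the wt female, and 5.40 in the control male and 5.51 in the wt male (difference 0.00, SE 0.18, adjusted p = 0.999). The mnn- arrays read 5.91 and 6.17 in females and 5.17 to 5.50 in males, so this probe set does not check the genotype labels. Of 23 probe sets of menin, trithorax and Polycomb genes, 0 passed, where 0.494% of all did. The nearest were Trl, the GAGA factor, at 0.51 (adjusted p = 0.088), trx at 0.54 (0.164) and kis at 0.78 (0.208).

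At 0.494% of all probe sets called, lists of 14 to 129 probe sets may well hold no call, and nothing is read from its absence in those that follow. Among the lists with 0 called members and medians within 0.1 of 0 were cuticle proteins (99 probe sets, median -0.05), odorant and gustatory receptors (129, median -0.06), the proteasome (41, median 0.00), glutathione S-transferases (36, median -0.02), serpins (26, median 0.02), phototransduction (24, median 0.07), accessory gland and ejaculatory duct (22, median 0.08), testis (28, median -0.04), neural genes (21, median 0.08), the circadian clock (14, median -0.06) and DNA damage repair (18, median -0.03). In the testis list 16 of 28 were above 0 in females and 11 in males, near the shares over all 13966 probe sets (7720 and 5761). A median over both sexes does not show what each sex did. In males 4 of 18 DNA damage repair, 17 of 99 cuticle and 27 of 129 receptor probe sets were above 0. In females 10, 63 and 67 of them were. The male counts were 14 of 22 for accessory gland and ejaculatory duct, 15 of 24 for phototransduction and 12 of 21 for neural genes.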

How the data were processed

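Total RNA of whole adults was labelled with biotin and hybridised to single-channel Affymetrix arrays, per the labels' protocols. The deposited values are log2 intensities per probe set and were used as deposited; the submitters' processing notes name affy (version 2.12.0) and RMA. RMA gives the probes of each array the same distribution before they are summarised, so a shift of all transcripts would not be seen, and no detection calls were used. The 44 control probe sets were left out. Of the 13966 tested, 12443 name a single gene in the platform annotation (12436 matched to RefSeq's Release 6 table), 327 several and 1196 none. The embryo arrays were not used here.

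limma 3.58.1 in R 4.3.3 fitted genotype plus sex over the 11 adult arrays, with Benjamini-Hochberg adjustment over all 13966 probe sets and a threshold of 0.05; control minus wt is then the mean of the 2 within-sex differences. Differences within a sex and between the sexes came from a level per sex and genotype. The genes named are Mnn1, the 12 highest and 12 lowest called single genes, the 6 highest and 6 lowest of the difference between the sexes, up to 4 members of a list and neighbouring called genes; the other called genes, the eggshell genes beyond 4 and the genes described as below the threshold were added after their values were seen. The comparison, its members and the gene lists were chosen with earlier results of these data known. On simulated data for the comparison over both sexes, 93 of 100 probe sets changed by 1 log2 unit and 100 of 100 changed by 2 were recovered, with 6 false calls among 13966. The simulated arrays varied independently around the fitted genotype and sex levels. They held no departing array and no stock difference that depends on sex, so these figures give no false call rate for the real arrays. The number of arrays limits the precision: the standard error of control minus wt had a median of 0.122 log2 units.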

Additional observations from a re-analysis of the deposited data

Results flagged for a closer look

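For 12 named probe sets limma's test of the male difference minus the female difference passed. Each of its 4 arms was 1 array, and its error came from the het and mnn- arrays alone, so it shows that these single arrays lay apart by more than those did, not that the stocks differ by sex. Values are in log2 units. Those below 0 were Yp1 (-4.05), Muc12Ea (-3.56), Yp3 (-3.24), Yp2 (-3.14), dhd (-3.05) and nanos (-2.57). These 6 are female-enriched, and the wt male array read all of them above every other male array. A second probe set of nanos read -0.18 and did not pass (adjusted p = 0.89). Those above 0 were CG34166 (3.42), Jhbp5 (3.42), apolpp (2.45), Muc4B (2.39), CG13114 (2.35) and Coq8 (2.24). With the mnn- arrays left out, none of the 12 passed, and apolpp kept its call under 5 of 16 alternatives. A difference of the stocks and that of a single array cannot be told apart here. No group held enough arrays for a check of single outlying samples.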

How the results depend on the processing

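Of the 61 genes called between control and wt, 7 passed under every alternative (Cp36, Cp38, Jon65Aii, Lectin-galC1, SrpRalpha, Ugt35C1 and Vm26Aa), and none changed sign. With the mnn- arrays left out, 4 were higher and 10 lower, 0 were called in females, 12 in males and 0 between the sexes. These fits have fewer residual degrees of freedom, and those within a sex or between the sexes take their error from the 2 het females alone. The loss of calls was not separated from this. With the het arrays left out 72 were higher. With a level per sex and genotype 118 were higher and 120 lower, all 69 among them. With a mean of at least 6 log2 units, 20 were lower, 40 called in females, 154 in males and 18 between the sexes; with probe sets of a gene averaged, 197 in males. Without female-enriched probe sets 20 were lower and 21 differed between the sexes, and without female- and male-enriched ones 24 and 30; these 2 alternatives were chosen after seeing the data. Leaving out each array in turn gave 10 to 116 higher, 15 to 111 lower, 68 to 112 in females, 129 to 468 in males and 28 to 70 between the sexes. The arrays that moved the higher count by over 1.5 times were wt female (116), wt male (20), control female (55), control male (10), each het (72), mnn- females 7 and 8 (20 and 17) and mnn- males 9 and 10 (19 and 20). Members numbered 175 past 0.5 in both sexes, 44 past 1, and 2823 with a mean of at least 6. Signs turned with an array left out in 3 genes that did not pass: Mnn1 (-0.234 without the wt female, -0.08 without the control male, up to 0.236 otherwise), Vm26Ac (0.084 without the wt female, down to -2.175 without the wt male) and CycB (0.188 without the wt male, down to -1.52 without the wt female); the cause was not tested. Quantile normalization on top of RMA gave 22 higher and 32 lower. With only the 4 arrays, 22 were higher and 29 lower; differences within a sex could not be fitted there. Replicate numbers here are array numbers and carry no pairing. The labels pair no control array with a wt array beyond sex, so no further paired analysis was run.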
